A study of Homo sapiens with 18 samples.

Results

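The comparison described here is the step from 10 to 30 mg/kg of DS55980254 in tumours grown from HCT116 cells, a human colon cancer line, that lack PTDSS2. The 12 dosed tumours of the series, 6 at each dose, are its members, chosen by their titles from 18 tumours in all. The other 6 tumours came from mice given the vehicle, 0.5% methylcellulose, and set the level from which each response was measured. Every group, the vehicle group included, carried the PTDSS2 knockout, was dosed orally and was collected 24 h after administration. Whether the knockout line was 1 clone and which mouse strain carried the tumours is not given in the sources used here. A xenograft also holds mouse stroma, while the tables list human genes. Nothing in the labels says that replicate numbers mark shared animals or batches, so the 6 tumours of a group were treated as separate samples. The question was which responses were already full at 10 mg/kg and which still grew with a dose 3 times as high.

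Phosphatidylserine, a phospholipid of the inner plasma membrane, is made by base exchange. PTDSS1 makes it from phosphatidylcholine and PTDSS2 from phosphatidylethanolamine, so a cell without PTDSS2 relies on PTDSS1, the enzyme that the series title names as the inhibitor's target. Of the gene programmes followed here, the SREBP factors drive cholesterol and fatty acid synthesis and are held in the endoplasmic reticulum by SCAP and INSIG1 when sterols are plentiful. ATF4, translated when eIF2alpha is phosphorylated, drives amino acid synthesis, amino acid transport and tRNA charging.

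Of the 18 libraries 1 was far shallower than the rest and 1 deeper. The summed expected count was 433981 in 10 mg/kg replicate 2, 8538792 in 30 mg/kg replicate 1 and 3435423 to 4900612 in the other libraries, so that 1 count was worth 2.14 CPM (counts scaled to the size of the library) in that library and at most 0.289 CPM elsewhere. The HCT116 epithelial markers (13 genes, none at 0 in every library) summed to 4479 CPM there and 5545 to 7814 CPM in the other dosed libraries. Summed marker levels of other cell types were higher in it, at 376 CPM for fibroblast genes (at most 111 CPM in the other 17 libraries) and 374 CPM for skeletal muscle genes (at most 128 CPM), and 398 olfactory receptor genes summed to 2017 CPM (477 to 850 CPM elsewhere). The genes that passed the low-count filter held 93.9% of its counts and 98.5% to 99.8% of the others. Results are therefore given with and without this library. In bulk tumours fewer cells of a type and less RNA per cell cannot be told apart.

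No gene passed the test for the dose step. At an adjusted p under 0.05 (edgeR's quasi-likelihood test, Benjamini-Hochberg adjustment), 0 of 14074 genes (0.0%) differed between 30 and 10 mg/kg, the smallest adjusted p being 0.969. At an unadjusted p under 0.05, 496 genes (3.52%) differed, 234 higher and 262 lower at 30 mg/kg. Without 10 mg/kg replicate 2 the test again called 0 of 14145 genes (0.0%), with a smallest adjusted p of 0.999 and 458 genes (3.24%) at an unadjusted p under 0.05. DESeq2 called 0 genes with 735 at an unadjusted p under 0.05, and limma-voom 0 with 511. The absence of calls does not show that the doses acted alike, so the size of a step that the data still allow was taken from its 95% interval. That interval lay within 1.5-fold either way for 9115 of the 14074 genes (64.8%), and for 10104 of 14145 (71.4%) without 10 mg/kg replicate 2.

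The genes that responded to the drug moved little further at the higher dose. Response genes were those that passed the test for the mean of both doses against vehicle, a contrast whose estimate had a median correlation of -0.03 with that of the step in the model: 131 of 14074 genes (0.931%), 105 higher and 26 lower than vehicle. Choosing them by 1 dose alone would have favoured steps of 1 direction. Their median log2 difference from vehicle, taken along the direction of each response, was 0.62 at 10 mg/kg and 0.67 at 30 mg/kg, both doses being read against the same 6 vehicle tumours. The median gene had 92.8% of its 30 mg/kg log2 response at 10 mg/kg. Of the 131 genes, 80 lay further from vehicle at 30 mg/kg (61.1%, against 43.8% of all genes tested) and 51 lay closer, with a median step along the response of 0.05 log2 and quartiles of -0.07 and 0.15. Without 10 mg/kg replicate 2 the shares lay closer together, at 58.8% of the same 131 genes and 49.3% of all genes.

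**Figure D1:**
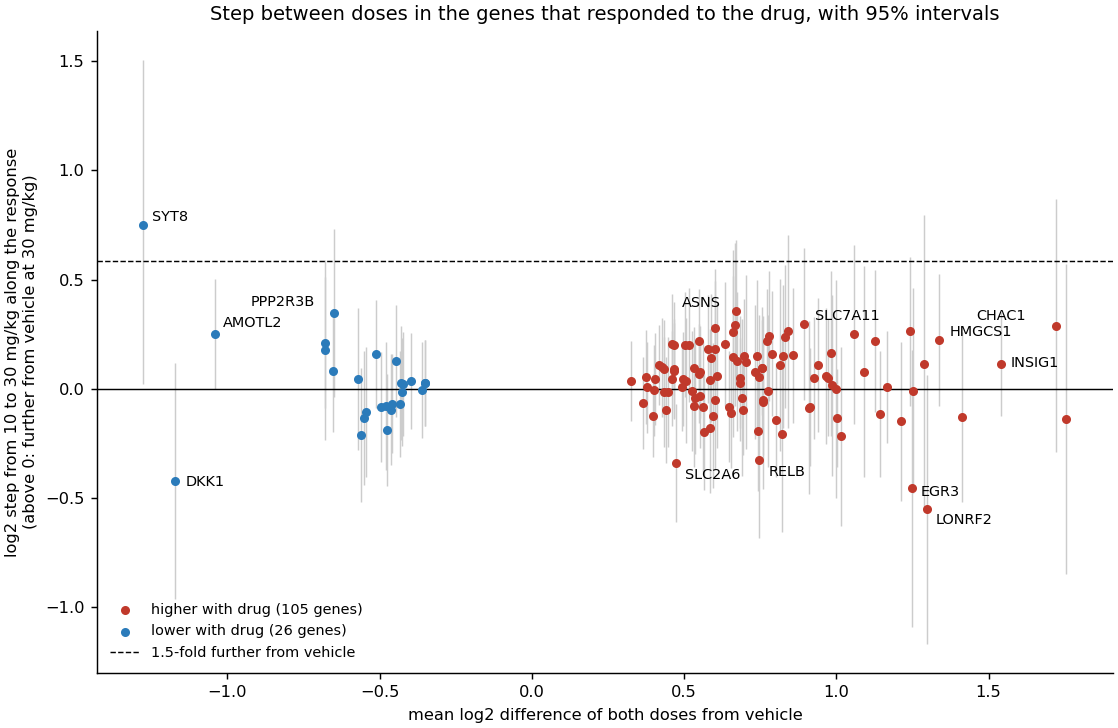
Each point is 1 of the 131 response genes. The horizontal axis is the mean log2 difference of both doses from vehicle, the vertical axis the log2 step from 10 to 30 mg/kg taken along the response, and the grey lines are 95% intervals. The points scatter about 0, the intervals of 119 genes end below the dashed line at 1.5-fold, and those of 12 genes cross it.

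The intervals bound how much further a response may have gone. Their upper end lay under a 1.5-fold further move for 119 of the 131 genes (90.8%), with a median upper end of 1.24-fold. That count uses the upper end alone, while the share of all genes given above uses both ends, so they cannot be compared. No share of all genes was computed for the upper end alone, so the 90.8% has no baseline. The bound is also wide, since 1.5-fold is nearly the size of the median response at 10 mg/kg, 0.62 log2. A gene bounded in this way could still have moved much further from vehicle. The median half-width was 0.28 log2, or 1.21-fold, so steps smaller than that could not be seen in most of these genes. In 119 genes the upper end of the interval was also smaller than the response already present at 10 mg/kg. Choosing genes by a large mean response in the same fit favours this count, so nothing is drawn from it. The step reached an unadjusted p under 0.05 in 5 response genes and an adjusted p under 0.05 in none. The CPM ranges of the 2 dosed groups did not overlap in 19 of 14074 genes (0.135%), and 0 of the 131 response genes were among them. Without 10 mg/kg replicate 2, 279 of 14145 genes responded (1.97%), 193 higher and 86 lower, and all 131 genes were among them. Of these 279, 153 lay further from vehicle at 30 mg/kg (54.8%, against 49.3% of all genes in that fit). The median step of the 279 was 0.03 log2, and 264 were bounded under 1.5-fold.

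The 4 response genes with a step along the response at an unadjusted p under 0.05 were ASNS, CD55, AMOTL2 and SYT8, and the 1 gene with a step back toward vehicle was SLC2A6. CD55, a cell-surface inhibitor of complement, averaged 18.2 ± 1.99 CPM (SD, n = 6) in vehicle and 24.7 ± 3.40 and 30.6 ± 4.41 CPM with the lower and the higher dose, a step of 0.28 log2. SYT8, a synaptotagmin, averaged 5.07 ± 1.42, 2.91 ± 1.05 and 1.61 ± 0.618 CPM, a step of 0.75 log2 along its response. CD55 and SYT8 fell outside the rule for naming genes and were picked after their values were seen. Without 10 mg/kg replicate 2 their unadjusted p rose to 0.0539 and 0.0571.

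The transcript of the targeted enzyme did not differ between the 2 doses beyond the spread between tumours. PTDSS1 ranged from 57.8 to 73.1 CPM at 10 mg/kg (median 64.6) and from 61.7 to 74.9 CPM at 30 mg/kg (median 67.4). These ranges overlapped almost wholly, and a 2-sided exact permutation test of log2 CPM over the 12 tumours gave p = 0.286, or 0.519 without 10 mg/kg replicate 2. The fitted log2 difference of PTDSS1 from vehicle was -0.23 at 10 mg/kg and -0.18 at 30 mg/kg. PTDSS2, the knocked-out gene, was still counted, at 7.11 to 13.9 CPM (median 8.72) at 10 mg/kg and 5.32 to 13.4 CPM (median 6.30) at 30 mg/kg, beside 4.97 to 12 CPM in vehicle. Its exact permutation p was 0.251 (0.271 without that library). Transcript still counted does not speak to the protein, and where in the gene the line was edited is not given in the sources used here.

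Transcripts of cholesterol synthesis enzymes were already raised over vehicle at 10 mg/kg. Among the 8 enzymes from acetyl-CoA to farnesyl diphosphate, 7 passed the test against vehicle, all higher, and among the 12 enzymes from squalene to cholesterol 11 did, all higher. The median log2 response of the first list was 0.81 at 10 mg/kg and 0.94 at 30 mg/kg, and of the second 0.65 and 0.82. The step was above 0 in 6 of 8 and 10 of 12 members (50.9% of all genes), with medians of 0.16 and 0.14 log2, and 0 members had an unadjusted p under 0.05 for it. Without 10 mg/kg replicate 2 the medians were 0.10 and 0.04. This library lay at 5.50 and 5.37 mean log2 CPM for the lists, near the vehicle tumours (5.22 to 5.58 and 5.45 to 5.62), while the other 5 tumours at 10 mg/kg lay at 6.04 to 6.33 and 6.22 to 6.37, and those at 30 mg/kg at 6.25 to 6.38 and 6.27 to 6.48. Counts over all genes are the baseline for the list counts here and below. Against vehicle 131 of 14074 genes passed, 279 of 14145 without 10 mg/kg replicate 2, 137 of 14212 without 30 mg/kg replicate 5 and 343 of 14071 without both. In the same 4 fits the step was above 0 in 50.9%, 50.6%, 47.9% and 50.8% of genes.

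Some of these genes are read through nearby CCAAT boxes, where NF-Y binds beside SREBP. The promoters of the sensor INSIG1 and of HMGCS1, which makes HMG-CoA, are shown as examples picked by hand. Both are the 250 bases before the gene's start in RefSeq's GRCh38.p14 annotation, INSIG1 at chr7:155297628-155297877 on the plus strand and HMGCS1 at chr5:43313413-43313662 on the minus strand, with capitals marking CCAAT on either strand (printed here as its reverse complement).
INSIG1: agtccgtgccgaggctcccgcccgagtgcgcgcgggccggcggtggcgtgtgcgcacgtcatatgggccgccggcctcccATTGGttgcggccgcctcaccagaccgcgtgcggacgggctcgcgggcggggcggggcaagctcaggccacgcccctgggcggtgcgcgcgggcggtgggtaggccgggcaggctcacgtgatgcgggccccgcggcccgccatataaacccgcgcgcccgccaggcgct
HMGCS1: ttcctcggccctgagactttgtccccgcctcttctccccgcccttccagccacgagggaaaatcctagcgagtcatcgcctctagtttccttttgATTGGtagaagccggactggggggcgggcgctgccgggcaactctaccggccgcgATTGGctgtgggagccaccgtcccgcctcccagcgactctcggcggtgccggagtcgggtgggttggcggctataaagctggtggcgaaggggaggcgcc
The match in INSIG1 begins 170 bases before the start and the first of 2 in HMGCS1 155 bases before it. CCAAT was found in 21 of 32 promoters of the sterol lists (65.6%) and in 11240 of 35116 promoters in the table (32.01%). Promoters of all genes tested held it in 32.92%, and those of the response genes in 58 of 158 (36.71%). The element TCACNCCAC, a form of the sterol regulatory element, was found in 1 of the 32 and in 310 of all (0.883%). A match of letters is a description and not a bound site. Of the 131 response genes described above, 104 matched a promoter in the table by gene ID, while list members were matched by symbol.

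INSIG1 ranged from 30.0 to 54.8 CPM in vehicle (median 39.4), 100 to 120 CPM at 10 mg/kg (median 112) and 101 to 143 CPM at 30 mg/kg (median 123). All 12 dosed tumours lay above all vehicle tumours, and the ranges of the doses overlapped. Its 2.80-fold rise at 10 mg/kg and 3.03-fold rise at 30 mg/kg left a step of 1.08-fold (95% interval 0.918 to 1.28, unadjusted p = 0.329). HMGCS1 ranged from 60.1 to 74.6 CPM in vehicle (median 69.7), 72.7 to 215 CPM at 10 mg/kg (median 154) and 158 to 214 CPM at 30 mg/kg (median 189). The lowest dosed value, 72.7 CPM, was 10 mg/kg replicate 2 and lay within the vehicle range. The step of HMGCS1 was 0.22 log2 with that library (95% interval -0.08 to 0.52, unadjusted p = 0.136) and 0.12 without it (-0.09 to 0.33, unadjusted p = 0.243).

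The same library lay apart for several other sterol genes. ACAT2, the thiolase that starts the pathway, had 10.7 CPM in it, against 42.0 to 55.6 CPM in the other 5 tumours at 10 mg/kg and 47.7 to 62.6 CPM at 30 mg/kg. Leaving it out moved the step of ACAT2 from 0.22 to 0.12 log2. DHCR7, which makes the last step to cholesterol, had 27.8 CPM in it, against 92.9 to 106 and 88.3 to 115 CPM, and its step went from 0.11 to 0.00. By contrast MVD, the mevalonate diphosphate decarboxylase, LSS, which closes the sterol ring, and FDPS, the farnesyl diphosphate synthase, were at 118, 180 and 139 CPM there, at or near the other tumours of the group. Their steps were -0.13, -0.08 and 0.10 log2, and the upper ends of the intervals lay at or under 0.31. MSMO1 and SQLE, which demethylate and oxidise the sterol backbone or its precursor, kept steps of 0.20 and 0.16 without that library (unadjusted p = 0.189 and 0.110).

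**Figure D2:**
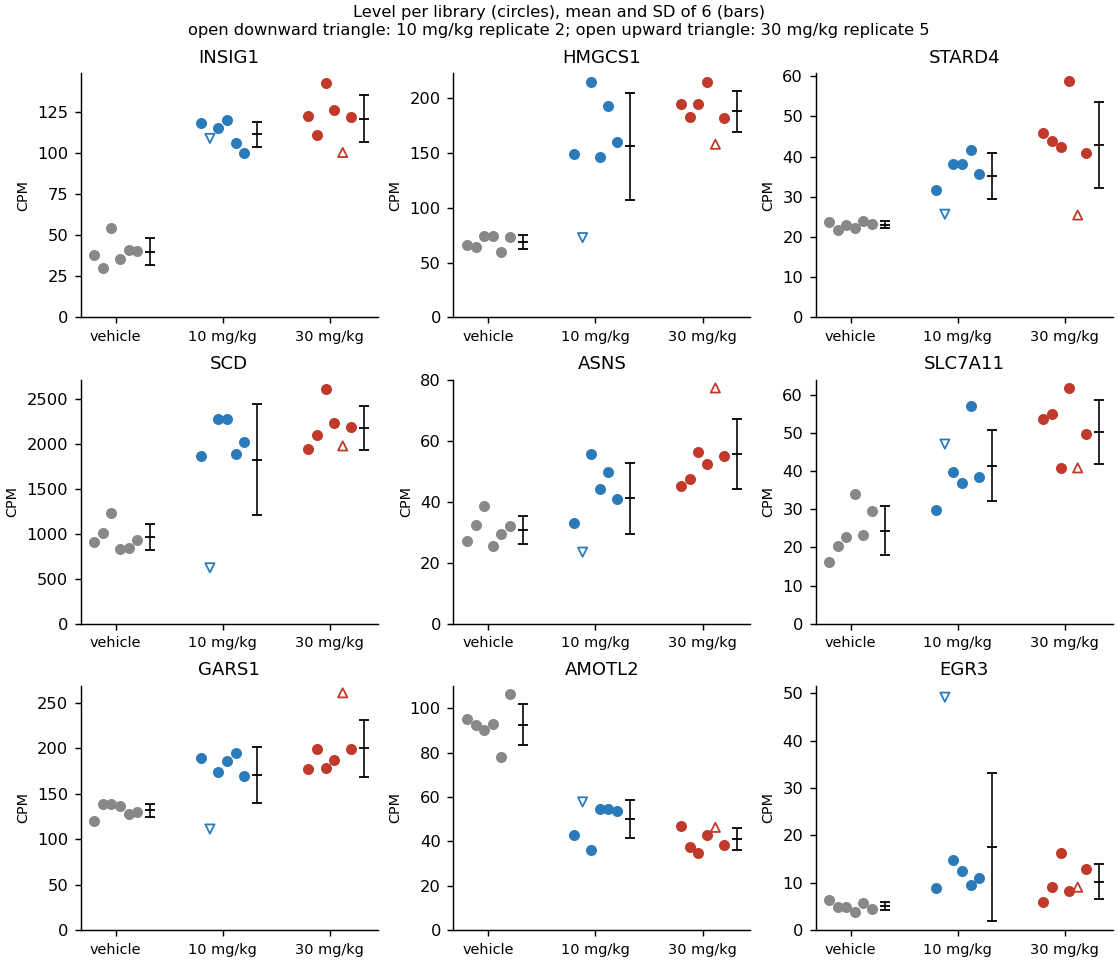
CPM of 9 genes in each of the 18 tumours, by group, with the mean and SD of the 6 tumours of a group. Open downward triangles are 10 mg/kg replicate 2, which lies at the vehicle level for HMGCS1 and at 49.2 CPM for EGR3. Open upward triangles are 30 mg/kg replicate 5, the highest tumour for ASNS and GARS1.

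Uptake and feedback genes of the SREBP programme stood at like levels at the 2 doses. Of 11 tested members of that list, 6 passed against vehicle, all higher, the median step was 0.02 log2 (-0.03 without 10 mg/kg replicate 2), and 7 were above 0. STARD4, a carrier of cholesterol between membranes, ranged from 21.7 to 24.0 CPM in vehicle, 25.7 to 41.6 CPM at 10 mg/kg (median 36.9) and 25.5 to 58.8 CPM at 30 mg/kg (median 43.1). Its step was 0.24 log2 (unadjusted p = 0.103), and 0.34 without 30 mg/kg replicate 5 (unadjusted p = 0.008, adjusted p = 0.956), the tumour with the lowest value at that dose. Here and below, 30 mg/kg replicate 5 was singled out because its values stood apart. Leaving it out therefore shifts a step by construction where it is extreme, and does not test that step.

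In fatty acid synthesis 3 of 18 genes passed against vehicle, all higher, and 7 without 10 mg/kg replicate 2. SCD, which puts the first double bond into fatty acids, ranged from 837 to 1230 CPM in vehicle (median 921), 622 to 2283 CPM at 10 mg/kg (median 1959) and 1944 to 2617 CPM at 30 mg/kg (median 2148). The value of 622 CPM was 10 mg/kg replicate 2, below every vehicle tumour, and the other 11 dosed tumours lay above all of them. The step of SCD was 0.25 log2 with an interval up to 0.66, and 0.07 with an interval up to 0.28 without that library. FASN, the fatty acid synthase, and ACSS2, which makes acetyl-CoA from acetate, had steps of 0.04 and 0.05 log2 with intervals up to 0.28 and 0.33. The list's median step was 0.12 log2, or 0.04 without that library.

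Phospholipid synthesis, the pathway of the target, held 2 genes that rose out of 29 tested. LPIN1, the phosphatidate phosphatase that supplies diacylglycerol, ranged from 26.8 to 32.3 CPM in vehicle, 45.4 to 66.5 CPM at 10 mg/kg (median 55.9) and 38.1 to 68.1 CPM at 30 mg/kg (median 59.6), a step of 0.05 log2 (-0.21 to 0.32). PCYT2, which sets the rate of the CDP-ethanolamine route to phosphatidylethanolamine, had a step of 0.11 log2 (-0.07 to 0.29). The median step of the list was 0.02 log2, -0.01 without 10 mg/kg replicate 2, and 26 of 29 genes were bounded under a 1.5-fold rise. The interval lay within 1.5-fold either way for 25 of the 29 (64.8% of all genes). LIPG, a secreted phospholipase, stood at 2.78-fold over vehicle at 10 mg/kg and 2.55-fold at 30 mg/kg.

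The amino acid arm of ATF4 held the largest step along a response among the named genes, that of ASNS at 0.36 log2, though it did not pass the test; the ranking covers genes of at least 5 CPM and leaves out SYT8. ASNS, the asparagine synthetase, ranged from 25.4 to 38.6 CPM in vehicle (median 30.7), 23.5 to 56.0 CPM at 10 mg/kg (median 42.6) and 45.2 to 77.5 CPM at 30 mg/kg (median 53.8). The lowest value at 10 mg/kg was replicate 2, the highest at 30 mg/kg was replicate 5, and the ranges of the doses overlapped. The step was 1.28-fold (95% interval 1.03 to 1.60, unadjusted p = 0.030, adjusted p = 0.969). It was 1.24-fold (unadjusted p = 0.043) without 10 mg/kg replicate 2, 1.18-fold (0.954 to 1.45, unadjusted p = 0.120) without 30 mg/kg replicate 5, and 1.14-fold (0.945 to 1.38, unadjusted p = 0.163) without both. At an adjusted p of 0.969 over all libraries, a growing response was not detectable in ASNS at this spread. Nor was a full one shown, since even without both libraries the interval reaches a further rise of 1.38-fold.

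Promoters of ASNS and of CHAC1, the glutathione-degrading enzyme with the largest fold of this programme, are shown because both are read by ATF4 with C/EBP partners, here searched as TGATGNAA on either strand (capitals; the reverse complement is printed for CHAC1). They are again the 250 bases before the start in GRCh38.p14, ASNS at chr7:97872409-97872658 on the minus strand and CHAC1 at chr15:40953221-40953470 on the plus strand.
ASNS: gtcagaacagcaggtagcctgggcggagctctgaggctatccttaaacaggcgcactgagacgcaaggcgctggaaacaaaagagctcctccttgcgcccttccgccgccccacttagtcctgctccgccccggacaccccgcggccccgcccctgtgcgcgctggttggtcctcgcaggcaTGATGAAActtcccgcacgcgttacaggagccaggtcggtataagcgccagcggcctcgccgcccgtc
CHAC1: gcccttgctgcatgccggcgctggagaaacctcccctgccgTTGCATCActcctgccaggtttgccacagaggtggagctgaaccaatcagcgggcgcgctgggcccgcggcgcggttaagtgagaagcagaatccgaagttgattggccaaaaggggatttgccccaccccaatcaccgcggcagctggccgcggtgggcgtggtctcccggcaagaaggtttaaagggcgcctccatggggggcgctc
The match begins 68 bases before the start of ASNS and 209 bases before that of CHAC1. TGATGNAA was found in 8 of 62 promoters of the ATF4 and tRNA synthetase lists (12.9%) and in 1104 of 35116 in all (3.14%). Promoters of all genes tested held it in 1.65%, and those of the response genes in 6 of 158 (3.80%). CHAC1 ranged from 1.23 to 2.74 CPM in vehicle, 4.28 to 10.1 CPM at 10 mg/kg (median 5.70) and 4.03 to 14 CPM at 30 mg/kg (median 7.72). All dosed values lay above all vehicle values. The 4.28 CPM came from 10 mg/kg replicate 2, where 3 counts are worth 6.42 CPM, so for that tumour this rests on fewer than 3 counts. CHAC1 levels were low in every group. CHAC1 stood at 2.98-fold over vehicle at 10 mg/kg and 3.64-fold at 30 mg/kg, with an interval of the step from 0.819 to 1.82-fold.

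SLC7A11, the cystine carrier that feeds glutathione synthesis, ranged from 16.3 to 33.9 CPM in vehicle (median 23.1), 29.7 to 56.9 CPM at 10 mg/kg (median 39.0) and 40.7 to 61.6 CPM at 30 mg/kg (median 51.7). Its step, 0.30 log2 (-0.05 to 0.64, unadjusted p = 0.089), was 0.31 without 10 mg/kg replicate 2, 0.34 without 30 mg/kg replicate 5 and 0.37 (0.01 to 0.72, unadjusted p = 0.043, adjusted p = 1.000) without both. SLC7A11-AS1, on the opposite strand, was itself a response gene, and whether counting used strand is not given in the sources used here, so reads of the pair cannot be told apart. SLC6A9, a glycine carrier at 20.3 CPM in 30 mg/kg replicate 5 and 11.3 to 14.6 CPM in the other 5, went from a step of 0.26 to 0.10 without both. TRIB3, a pseudokinase that damps ATF4, and CEBPG, its C/EBP partner, had steps of 0.06 and 0.01 log2 on rises of 1.65-fold and 1.40-fold at 10 mg/kg. The interval of CEBPG ended at 1.16-fold.

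Over the ATF4 lists and the tRNA synthetases the same 2 libraries moved the medians. The aminoacyl-tRNA synthetases, which charge tRNAs with amino acids, had a step above 0 in 12 of 12 members (50.9% of all genes). Their median was 0.16 log2, with 0 members at an unadjusted p under 0.05. The median was 0.10 without 10 mg/kg replicate 2, 0.07 without 30 mg/kg replicate 5 and 0.06 without both, with 9 of 12 above 0. Leaving out 30 mg/kg replicate 5 lowers, by construction, the step of a list in which it is the highest tumour. At 7.59 mean log2 CPM, 30 mg/kg replicate 5 lay above the other 5 tumours of its group (7.26 to 7.37), and 10 mg/kg replicate 2, at 6.55, below the other 5 of its own (7.18 to 7.41). GARS1, the glycine enzyme, had 111 CPM in the latter and 170 to 195 CPM in the rest of the group, and 261 CPM in the former and 177 to 199 CPM in the rest, so that its step of 0.20 log2 went to 0.04 without both. AARS1 and MARS1, the alanine and methionine enzymes, had steps of 0.09 and 0.05. ATF4 amino acid synthesis genes went from a median of 0.13 (9 of 10 above 0) to 0.04 (6 of 10), and transport genes from 0.12 to 0.04. The regulators went the other way, from 0.06 to 0.11. Against vehicle 1 synthesis gene, 2 transporters, 3 regulators and 3 synthetases passed, all higher. Without 10 mg/kg replicate 2 these counts were 1, 4, 5 and 5, and without 30 mg/kg replicate 5 the transporters went to 1.

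**Figure D3:**
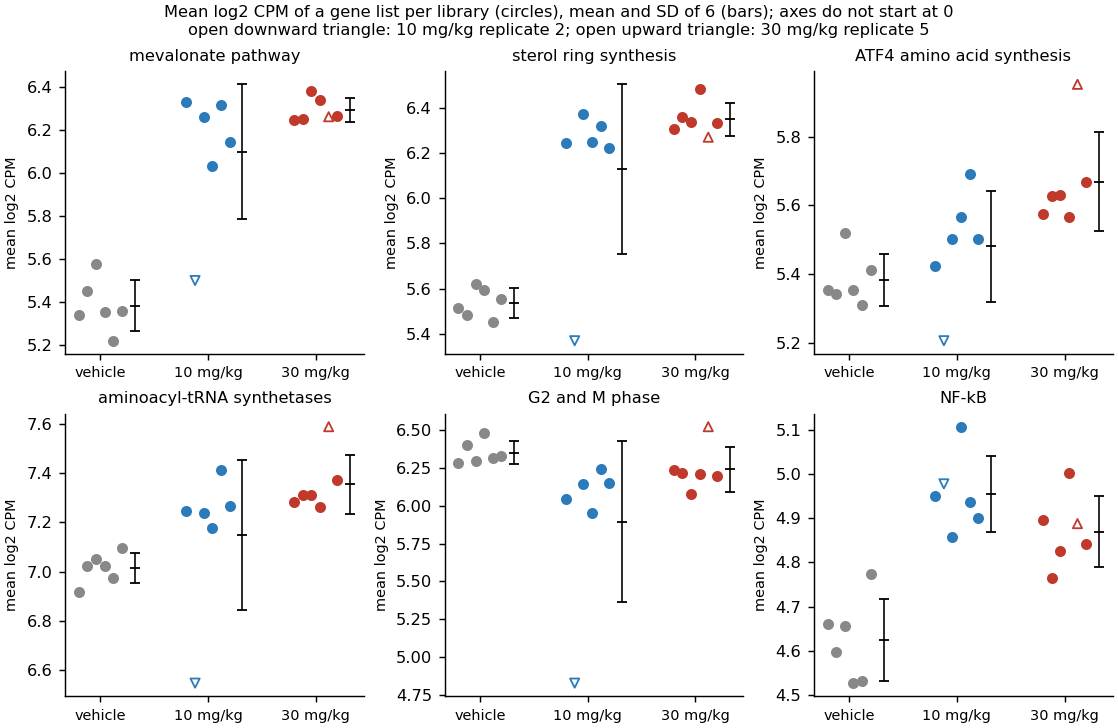
Mean log2 CPM of 6 gene lists in each tumour, by group, with the mean and SD of 6 tumours; the vertical axes do not start at 0. The open downward triangle, 10 mg/kg replicate 2, lies below its group in 5 of the 6 panels, and the open upward triangle, 30 mg/kg replicate 5, lies above its group for the ATF4 synthesis, tRNA synthetase and G2 and M phase lists.

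NF-kB genes, which answer inflammatory and stress signals, had a median nearer vehicle at 30 mg/kg than at 10 mg/kg. Of 17 NF-kB genes 2 passed against vehicle, both higher. The median log2 difference from vehicle was 0.31 at 10 mg/kg and 0.21 at 30 mg/kg, and 6 of 17 steps were above 0, with a median of -0.09 (-0.10 in each of the 3 fits without 1 or both libraries). RELB, a subunit of the non-canonical factor, ranged from 11.6 to 22.1 CPM in vehicle (median 15.2), 23.6 to 51.3 CPM at 10 mg/kg (median 28.7) and 21.7 to 31.2 CPM at 30 mg/kg (median 22.7). The highest value was 10 mg/kg replicate 2, and the step of -0.32 log2 (-0.68 to 0.03) was -0.25 without it (unadjusted p = 0.134). NFKBIA, the inhibitor that NF-kB induces, had a step of -0.18 (-0.48 to 0.12). ICAM1, an adhesion molecule, and BIRC3, an inhibitor of apoptosis, had steps of -0.44 and 0.35 with unadjusted p of 0.046 and 0.047, and -0.29 and 0.34 with 0.093 and 0.051 without 10 mg/kg replicate 2. These 2 were picked after their values were seen, as the members of the list under 0.05.

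Of 29 immediate early genes, which answer growth signals without new protein, 6 were higher than vehicle (9 without 10 mg/kg replicate 2) and 1 lower, and the median step was -0.07 log2 (-0.01 without 10 mg/kg replicate 2). EGR3, a zinc finger factor, ranged from 3.86 to 6.33 CPM in vehicle, 8.79 to 49.2 CPM at 10 mg/kg (median 11.7) and 5.98 to 16.3 CPM at 30 mg/kg (median 9.06). The 49.2 CPM came from replicate 2, the other 5 tumours ending at 14.8 CPM, and the step went from -0.46 log2 to -0.15 without it. LONRF2 had the same value in the same library, against 8.02 to 14.2 CPM in the other 5, and its step went from -0.55 to -0.27. JUN, a subunit of AP-1, had 400 CPM in that library and 199 to 264 CPM in the other 5, with a step of -0.19 that went to -0.05. JUND, its relative, went from -0.10 to -0.04, while DUSP4, a phosphatase of MAP kinases, and KLF6 had steps of 0.10 and 0.08.

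SLC2A6, a lysosomal relative of the glucose carriers, did not depend on that library. It ranged from 16.3 to 20.6 CPM in vehicle (median 17.5), 24.5 to 32.8 CPM at 10 mg/kg (median 26.9) and 18.9 to 27.7 CPM at 30 mg/kg (median 21.5). All 6 tumours at 10 mg/kg lay above every vehicle tumour, and those at 30 mg/kg overlapped both groups. The step was 0.79-fold (95% interval 0.656 to 0.952, unadjusted p = 0.015, adjusted p = 0.969) and stood at -0.34 log2 both with and without 10 mg/kg replicate 2.

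Among targets of YAP and TEAD, the transcription factors that the Hippo pathway restrains, 1 gene was higher and 2 lower than vehicle out of 21, with 4 lower without 10 mg/kg replicate 2 and 6 without both libraries. AMOTL2, a scaffold that holds YAP in the cytoplasm, ranged from 78.0 to 106 CPM in vehicle (median 92.8), 36.2 to 57.8 CPM at 10 mg/kg (median 54.2) and 34.9 to 47.0 CPM at 30 mg/kg (median 40.6). All dosed tumours lay below all vehicle tumours, and 4 of the 6 at 10 mg/kg lay above every tumour at 30 mg/kg. The step was 0.840-fold (0.706 to 1.00, unadjusted p = 0.0499), 0.852-fold without 10 mg/kg replicate 2 (unadjusted p = 0.061) and 0.834-fold without that library and 30 mg/kg replicate 5 (unadjusted p = 0.042). ARHGEF17, a guanine nucleotide exchange factor, had a step of -0.16 log2 on a fall to 0.742-fold at 10 mg/kg. The list's median step was -0.05 log2, 6 of 21 being above 0.

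Wnt targets, which report beta-catenin activity, had the lowest median step of the 27 lists with all libraries, -0.14 log2 with 2 of 10 above 0, and -0.17 without 10 mg/kg replicate 2. Of the 10, 1 gene passed against vehicle, DKK1, which was lower. This secreted Wnt inhibitor ranged from 13.8 to 35.2 CPM in vehicle (median 21.9), 5.12 to 11.6 CPM at 10 mg/kg (median 9.78) and 8.74 to 18.2 CPM at 30 mg/kg (median 11.1). Its step, 0.42 log2 (-0.12 to 0.96), led back toward vehicle and stood at 0.42 without the shallow library too. The median log2 difference of the list from vehicle was 0.24 at 10 mg/kg and -0.03 at 30 mg/kg. NOTUM, ZNRF3 and NKD1 are feedback inhibitors of Wnt signalling. They had steps of -0.52, -0.26 and -0.38 at an unadjusted p under 0.05 (1.86% of all genes were lower at that p). Of the 10 members they were picked after their values were seen, and without 10 mg/kg replicate 2 the unadjusted p was 0.024, 0.035 and 0.087.

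Mitotic genes had a step above 0 in 25 of 26 members (50.9% of all genes) and a median step of 0.20 log2. This was the highest of the 27 lists with all libraries, but the mevalonate list was above it without 30 mg/kg replicate 5 (0.20 against 0.12) and without both libraries (0.14 against 0.07). In this list 0 genes passed against vehicle (1 without 10 mg/kg replicate 2, 1 without 30 mg/kg replicate 5 and 2 without both), with median differences of -0.29 at 10 mg/kg and -0.09 at 30 mg/kg, so the higher dose lay nearer vehicle. Of all genes 1.66% were higher at 30 mg/kg at an unadjusted p under 0.05. CDK1, the mitotic kinase, KIF11, a spindle motor, and BIRC5, a mitotic survivin, had steps of 0.41, 0.32 and 0.24 at that p and were named for that reason. Without 30 mg/kg replicate 5 their steps were 0.35, 0.26 and 0.11 (unadjusted p = 0.054, 0.099 and 0.207). The mean log2 CPM of the list was 4.83 in 10 mg/kg replicate 2 and 5.95 to 6.24 in the rest of that group, and 6.52 in 30 mg/kg replicate 5 and 6.08 to 6.24 in the rest of that one. Without the former the median was 0.14, without the latter 0.12 and without both 0.07, with 20 of 26 above 0.

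Genes of DNA replication lay about as far below vehicle at 10 as at 30 mg/kg, with median log2 differences of -0.34 and -0.31. Of 36, 3 passed the test against vehicle, all lower, but 8 without 10 mg/kg replicate 2, 7 without 30 mg/kg replicate 5 and 18 without both. BLM, a helicase of recombination, ranged from 27.5 to 36.6 CPM in vehicle, 15 to 26.2 CPM at 10 mg/kg (median 21.4) and 15.4 to 24.1 CPM at 30 mg/kg (median 21.1). All dosed tumours lay below all vehicle tumours, and the step was -0.08 log2 (-0.37 to 0.20). E2F7, a repressor of E2F targets, and CDT1, which licenses origins, had steps of 0.07 and 0.00 with intervals within 0.30 either way. The median step of the list was 0.05 log2, but -0.05 with 10 of 36 above 0 when both libraries were left out, so its sign changed. Of 29 replication-dependent histone genes 2 were lower than vehicle, 4 without 10 mg/kg replicate 2 and 7 without both libraries. They had medians of -0.37 and -0.33 and a step of 0.05, or -0.10 without both libraries. H2AC13 and H4C14 had steps of 0.08 and -0.03; histone genes have near-identical copies, so their counts are uncertain.

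Besides the mitotic genes, the lists with no gene past the test against vehicle had median steps from -0.02 to 0.12 log2 with all libraries. Without both libraries 1 hypoxia gene passed. Ribosomal protein genes had a median of 0.12 log2 with 65 of 77 above 0 (50.9% of all genes), and 0.03 with 49 of 77 (50.6%) without 10 mg/kg replicate 2. The lowest and highest steps of that list were those of RPLP2, -0.63 log2, which went to -0.09 without that library, and RPL21, 1.80 log2, which stayed at 1.73 without it but had a 95% interval from -1.40 to 5.01 (unadjusted p = 0.245). RPL21 has many processed copies in the genome, so its counts are uncertain. Respiratory chain genes went from 0.12 to 0.01 without both libraries. The p53 targets had a median of -0.02, or 0.09 without 10 mg/kg replicate 2, endoplasmic reticulum chaperones 0.04, hypoxia and glycolysis genes -0.02 and interferon genes -0.02, or -0.08 without that library. For chaperones, the interval lay within 1.5-fold either way for 21 of 21 genes (64.8% of all genes).

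**Figure D4:**
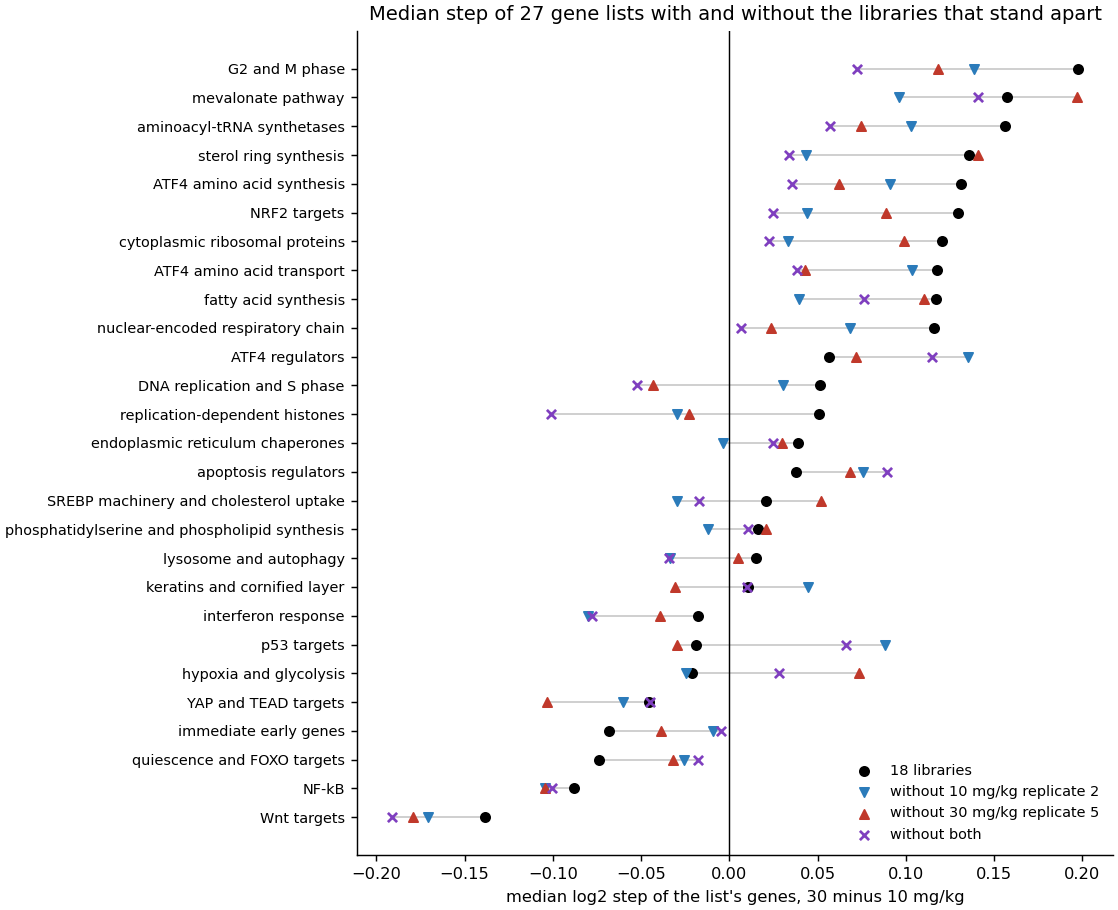
Median log2 step (30 minus 10 mg/kg) of the tested genes of 27 lists, one list per row, in 4 fits marked by symbol. The black points, all 18 libraries, run from -0.14 for Wnt targets to 0.20 for G2 and M phase; most of the lists above 0.10 lie nearer 0 without 10 mg/kg replicate 2 or without both libraries.

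Other programmes held single response genes. PMAIP1, the BH3-only protein NOXA, was the 1 apoptosis regulator of 23 past the test against vehicle and ranged from 81.1 to 99.7 CPM in vehicle, 105 to 145 CPM at 10 mg/kg (median 119) and 112 to 165 CPM at 30 mg/kg (median 137). All dosed tumours lay above all vehicle tumours, and the step was 1.14-fold (0.957 to 1.35). The median step over apoptosis regulators was 0.04. Of 22 keratin, desmosome and cornified layer genes 5 were higher than vehicle, with a median step of 0.01. The 6 skin markers, none at 0 in every library, summed to 12.4 to 33.4 CPM in vehicle (median 17.1), 17.9 to 188 CPM at 10 mg/kg (median 34.2; at most 58.8 CPM without replicate 2) and 18.9 to 58.1 CPM at 30 mg/kg (median 29.1), and their part in the rise of keratin genes was not tested. KRT6B, a keratin of stressed epithelium, stood at 2.39-fold and 2.38-fold over vehicle at the 2 doses, with a wide interval of the step from 0.719 to 1.38-fold. It has near-identical neighbours among the keratins, so its counts are uncertain. DSC2, a desmosomal cadherin, and LAMA3, a laminin chain, had steps of 0.20 and 0.21 log2, with unadjusted p of 0.0504 and 0.145.

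Glucocorticoid-responsive TSC22D3 and KLF9, which were counted in the list of quiescence and FOXO targets (16 tested, 2 higher, median step -0.07), lay no higher at 30 than at 10 mg/kg by their fitted steps. TSC22D3 ranged from 18.3 to 26.8 CPM in vehicle (median 22.6), 25.7 to 58.2 CPM at 10 mg/kg (median 52.6) and 37.5 to 55.7 CPM at 30 mg/kg (median 47.6), a step of -0.11 log2 (-0.40 to 0.17), and KLF9 had a step of -0.01 (-0.36 to 0.34). The low value of TSC22D3 at 10 mg/kg was again replicate 2. Of the lysosome and autophagy genes 2 of 26 were higher, with a median step of 0.02. NEU1, the lysosomal sialidase, had a step of -0.20 and SQSTM1, the autophagy receptor p62, one of -0.01. NRF2 targets had a median of 0.13, or 0.04 without 10 mg/kg replicate 2, with 1 of 20 higher than vehicle, and 3 without that library.

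Some named genes with large responses or steps remain. FGFBP1, a carrier of fibroblast growth factors, ranged from 2.03 to 5.07 CPM in vehicle, 0 to 21.5 CPM at 10 mg/kg and 5.54 to 16.2 CPM at 30 mg/kg. Its 0 was 10 mg/kg replicate 2, where a count of 0 allows up to 6.42 CPM, and the step was -0.14 log2 (-0.85 to 0.57). LBH, a transcription cofactor, stood at 2.44-fold and 2.20-fold over vehicle. PPP2R3B, of the phosphatase PP2A, ranged from 14.5 to 22.3 CPM in vehicle, 10.7 to 27.8 CPM at 10 mg/kg and 8.73 to 12.6 CPM at 30 mg/kg, the 27.8 CPM again from replicate 2, and its step of -0.35 log2 was -0.26 without it. NT5E, which makes adenosine outside the cell, had a step of 0.29 (-0.08 to 0.67), 0.26 without that library.

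The genes with the smallest p for the step did not pass and were mostly no response genes. CCDC88B ranged from 11.5 to 20.4 CPM in vehicle, 21.1 to 47.1 CPM at 10 mg/kg (median 23.5) and 12.3 to 20.0 CPM at 30 mg/kg (median 15.4). Every tumour at 10 mg/kg lay above every tumour at 30 mg/kg, with a step of -0.66 log2 (unadjusted p = 0.000945, adjusted p = 0.969) and -0.57 without replicate 2. ABHD8, PRAG1 and DACT1, the last a modulator of Wnt signalling, had steps of -0.64, -0.36 and -1.30, and none of them, nor CCDC88B, passed against vehicle. FAM107B ranged from 32.6 to 39.4 CPM at 10 mg/kg and, without overlap, from 40.9 to 47.9 CPM at 30 mg/kg, a step of 0.36 (unadjusted p = 0.0018), vehicle lying at 32.5 to 41.9 CPM. Without 10 mg/kg replicate 2, SNX7, a sorting nexin, joined these with a step of 0.39 (unadjusted p = 0.0013, adjusted p = 0.999).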

How the data were processed

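RNA from 18 HCT116 PTDSS2-knockout xenografts was made into libraries from 5 ng of total RNA, per the labels' protocols. STAR 2.4.2a and the builds hg19 and mm10 are named in the submitters' processing notes without roles. The values used are the expected counts that the authors deposited, 1 table per tumour in the layout RSEM writes, rounded here to whole numbers. The deposited TPM served only for alternatives. edgeR 4.0.16 (R 4.3.3) fitted all 18 libraries with TMM scaling after its expression filter, which left 14074 genes. Of 25343 gene IDs, 25220 matched a symbol by ID. CPM are on TMM-scaled totals of these genes. Intervals of the step are 95% Wald intervals of that fit. DESeq2 1.42.0 and limma 3.58.1 gave alternatives. The model was tested on simulated data. PTDSS1 and PTDSS2 were also tested by exact permutation of log2(CPM + 0.5).

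Members and gene lists were chosen with earlier results of these data known. Named genes were PTDSS1 and PTDSS2, the 5 smallest p of the step, the 10 largest responses, the 5 largest and 5 smallest steps among response genes with at least 5 CPM, and up to 4 response genes per list; a few of them are not reported here. The p-values measure the spread between these tumours. Replicate numbers were not taken to pair libraries, since the labels name no pairing. Over 18 same-numbered pairs, deviations correlated between -0.281 and 0.224, which cannot exclude a shared batch.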

Additional observations from a re-analysis of the deposited data

Results flagged for a closer look

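Within the groups of 6, values lying far from the other 5 of their group by Dixon's criterion were looked for in 240 groups of values: the named genes reported here in 3 groups and the mean log2 CPM of 27 lists in the 2 dosed groups. For independent values of equal, normal spread the criterion marks about 1 in 20 such groups. That rate does not hold here: 1 library was far shallower, genes were picked by their values, and named genes recur in the lists. The count below is thus a description. In all 43 values lay apart, 25 of them in 10 mg/kg replicate 2 and 9 in 30 mg/kg replicate 5.

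In 10 mg/kg replicate 2 the high values were 23.5 CPM for ABHD8, 47.1 for CCDC88B, 92.0 for CEBPG, 49.2 for EGR3, 68.4 for H4C14, 400 for JUN, 49.2 for LONRF2, 27.8 for PPP2R3B, 40.6 for SNX7 and 64.2 for TRIB3. The low values were 10.7 CPM for ACAT2, 27.8 for DHCR7, 111 for GARS1 and 622 for SCD. Its mean log2 CPM lay below the group for G2 and M phase (4.83), NRF2 targets (5.58), SREBP machinery and uptake (5.90), aminoacyl-tRNA synthetases (6.55), ribosomal proteins (7.68), fatty acid synthesis (5.84), lysosome and autophagy (5.05), the mevalonate pathway (5.50), the respiratory chain (5.29), histones (4.54) and sterol ring synthesis (5.37). All of these values come from the shallowest library, in which 1 count is 2.14 CPM.

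In 30 mg/kg replicate 5, ASNS (77.5 CPM), GARS1 (261 CPM) and SLC6A9 (20.3 CPM) lay above the other 5 tumours and ARHGEF17 (36.2 CPM) below them. The lists of ATF4 amino acid synthesis (5.95), amino acid transport (6.45), aminoacyl-tRNA synthetases (7.59), G2 and M phase (6.52) and histones (6.31) were also higher there, in mean log2 CPM. That library's summed expected count, 3755044, was the lowest of its group, and its olfactory receptor sum of 776 CPM the highest; their part in the result was not tested.

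Of the other values, PTDSS2 stood at 13.9 CPM in 10 mg/kg replicate 3, DKK1 at 18.2 and MVD at 105 CPM in 30 mg/kg replicate 3, the keratin list at 5.70 mean log2 CPM in 30 mg/kg replicate 2, and the interferon list at 6.45 in 30 mg/kg replicate 6. In the vehicle group JUN (174 CPM), KRT6B (60.9 CPM) and PMAIP1 (99.7 CPM) stood apart in replicate 3 and MSMO1 (34.3 CPM) in replicate 4.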

How the results depend on the processing

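The step had 0 genes past the threshold in the main analysis and in each of the 28 alternatives, with 255 to 1790 genes at an unadjusted p under 0.05. The count of genes responding to the mean of both doses, 131, ran from 106 to 279 when 1 dosed library was left out, the 279 being without 10 mg/kg replicate 2. It was 343 without that library and 30 mg/kg replicate 5 and 283 when 10 mg/kg replicate 4 was left out as well. It was 74 with no filter, 277 with DESeq2 and 452 with DESeq2 without 10 mg/kg replicate 2, 585 with limma-voom and sample weights and 268 with limma-voom without that library, and 38 with limma-trend on log2(TPM + 1) or log2(TPM + 0.1). The cause was not tested. With replicate number as a block 75 genes passed. A library correlated best with its own number in 4 of 18 pairs, which does not settle whether numbers share a batch. The labels name no pairing, so the numbers were not taken to pair tumours.

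Among the 131 genes, 75 to 88 lay further from vehicle at 30 mg/kg over the alternatives, with a median step along the response of 0.02 to 0.11 log2. Of the 756 list medians recomputed, 12 moved by more than the SD of the list and 103 changed sign. On log2(TPM + 1) and log2(TPM + 0.1) amino acid transport went to 0.23 and 0.24, immediate early genes to 0.057 and 0.058, and p53 targets to 0.11 and 0.11. On log2(TPM + 0.1) SREBP machinery went to 0.18 and interferon genes to 0.17. The p53 median ran from -0.079 to 0.088 when 1 dosed library was left out (highest without 10 mg/kg replicate 2). In that setting it was 0.088 with DESeq2 and 0.087 with only the 11 dosed libraries, and it was 0.075 without 10 mg/kg replicates 2 and 4 and 30 mg/kg replicate 5. Of 1819 recomputed steps of the 65 named genes, 0 passed the threshold and 114 changed sign; 43 genes kept 1 sign throughout. Settings that leave out several libraries at once, or pair another tool or only dosed libraries with leaving out 10 mg/kg replicate 2, were chosen after seeing the data. Leaving out each dosed library in turn was planned, but 30 mg/kg replicate 5 was singled out in the text because its values stood apart.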
